A study of Rattus norvegicus with 6 samples.

Results

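The transforming growth factor beta (TGF-beta) genes of primary rat chondrocytes were described in 3 CON and 3 RA samples. The set held the 10 genes whose symbol in the deposited tables was Tgfb1, Tgfb2, Tgfb3, Tgfbr1, Tgfbr2, Tgfbr3, Ltbp1, Ltbp2, Ltbp3 or Ltbp4, out of 18923 genes in all. All 10 were found, each under 1 Ensembl identifier, and all 10 passed the filter on low counts. The chondrocytes, the cells that build cartilage matrix, were wild-type (WT) cells freed by collagenase from cartilage of newborn (24 h old) female Sprague-Dawley rats and used at passage 1 or 2. Both groups were kept in high-glucose medium with 10% fetal bovine serum, to which the RA group received 1 µM all-trans retinoic acid, the form of vitamin A that activates nuclear retinoic acid receptors, for 24 h. No vehicle is named for the CON group, and the 3 samples of a group are described as independent. The study's methods call its replicates biologically independent in general, without naming separate animals or cultures for these samples, so p-values measure the spread between these samples only. The serum that both groups received is itself a source of latent TGF-beta protein, which these RNA measurements do not see.

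The TGF-beta ligands are secreted in a latent form, in which the mature dimer stays wrapped in its own propeptide. Latent TGF-beta binding proteins (the Ltbp genes) bind that propeptide and tether the complex to fibrillin microfibrils in the matrix, from which integrins and proteases can release it. The free ligand assembles the kinase receptors Tgfbr2 and Tgfbr1, which phosphorylate Smad2 and Smad3, while betaglycan, encoded by Tgfbr3, is a co-receptor without kinase activity that presents ligand and whose shed ectodomain can also bind it away. In cartilage the pathway is known for promoting matrix production and holding back hypertrophic maturation.

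RA samples had higher Tgfbr3, Ltbp3 and Ltbp1 RNA than CON samples. Tgfbr3 rose from 9.62 ± 0.284 to 16.7 ± 1.03 FPKM (mean ± SD, n = 3 in each group here and below), Ltbp3 from 48.6 ± 10.2 to 86.8 ± 4.12 and Ltbp1 from 33.1 ± 1.50 to 48.1 ± 0.700. FPKM is a read count corrected for gene length and sequencing depth, so levels can be set beside each other between genes. None of the 3 ligand genes passed the test across all 6 samples, and neither did the kinase receptors Tgfbr1 and Tgfbr2. Genes were tested with edgeR's quasi-likelihood test on the counts of all 13438 genes that passed the filter, with Benjamini-Hochberg adjustment over all of them. A gene passed when its adjusted p was below 0.05, and it was called a differentially expressed gene (DEG) when its log2 fold change (RA minus CON) was also beyond 0.58 in either direction. By these rules 3 of the 10 genes passed, all 3 of them higher in RA, and 2 of them, Tgfbr3 and Ltbp3, were DEGs. Over all genes tested 5.31% passed as higher and 2.67% were DEGs higher in RA. None of the 10 passed as lower in edgeR (4.5% of all genes did, and 2.29% were DEGs lower in RA), none was lower at an unadjusted p below 0.05 (11.7% of all genes were), and none passed as lower by DESeq2 (6.01% of all genes did).

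The libraries held 29370025 to 38007486 counted reads each, and the 10 genes had 1157 to 16547 reads in a sample. CON sample 1 stood apart from the other CON samples. The chi-square per gene between CON sample 1 and the other CON samples was 39.6 and 63.3, against 8.21 between CON samples 2 and 3 and 6.53 to 8.25 between RA samples. CON sample 1 was over 1.2 times below both other CON samples for 18.2% of genes tested and over 1.2 times above both for 13.4%, and its share of reads on mitochondrially encoded genes was 5.37%, against 3.27% to 3.5% in the other 5 samples. Among the 10 genes, Tgfbr2, Ltbp2, Ltbp3 and Ltbp4 were below both other CON samples by that margin in CON sample 1, and Tgfbr1 was above both. For the 10 genes, their groups and the counts of the pathway lists, values without it are given where leaving it out changes a call, turns a direction or moves a called value by over 1.5 times. Chondrocyte markers were present: 10 of 10 were found, with summed levels of 8029.8 to 9927.5 FPKM in CON and 5033.9 to 5364.2 FPKM in RA, and all 10 passed as lower in RA. In bulk RNA, fewer cells of a type and less RNA per cell cannot be told apart. Of 7 genes known to respond to retinoids, 5 were DEGs, all 5 higher in RA. Rarb, a retinoic acid receptor gene, was 1 of them at an adjusted p of 0.0494, and it stayed a DEG in 1 of the 6 fits with a sample left out (without CON sample 1).

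The promoters of the 3 genes that passed are shown because they are the DNA just upstream of the genes whose RNA moved, with that of Tgfb2 beside them for its matches to a retinoid receptor hexamer. Each run covers the 250 bases before the RefSeq start of the gene in the GRCr8 assembly, written 5′ to 3′ on the gene's strand. Capitals mark every match, on either strand, to 10 strings: the retinoid receptor hexamers AGGTCA or AGTTCA or GGGTCA or GGTTCA, the Sp1 core GGGCGG, the CCAAT box, the CREB palindrome TGACGTCA, the TATA string TATAAA, the AP-1 string TGAGTCA and the Smad palindrome GTCTAGAC.
Tgfbr3, chr14:2634044-2634293, plus strand: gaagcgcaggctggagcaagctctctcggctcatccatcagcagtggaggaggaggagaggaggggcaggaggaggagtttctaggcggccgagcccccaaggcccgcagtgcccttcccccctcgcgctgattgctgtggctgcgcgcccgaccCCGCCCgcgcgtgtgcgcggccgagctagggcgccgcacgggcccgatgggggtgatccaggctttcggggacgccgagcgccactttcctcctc
Ltbp3, chr1:212458955-212459204, plus strand: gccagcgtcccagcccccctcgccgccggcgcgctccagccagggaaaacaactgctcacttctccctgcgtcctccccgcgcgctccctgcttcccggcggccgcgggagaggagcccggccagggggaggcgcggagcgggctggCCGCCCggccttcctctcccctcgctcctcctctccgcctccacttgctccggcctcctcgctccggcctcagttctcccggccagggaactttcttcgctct
Ltbp1, chr6:26177302-26177551, minus strand: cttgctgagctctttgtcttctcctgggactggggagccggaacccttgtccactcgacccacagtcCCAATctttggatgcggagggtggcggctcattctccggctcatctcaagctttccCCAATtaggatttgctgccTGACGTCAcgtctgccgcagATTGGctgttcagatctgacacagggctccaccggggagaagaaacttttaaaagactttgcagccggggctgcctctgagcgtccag
Tgfb2, chr13:100792686-100792935, minus strand: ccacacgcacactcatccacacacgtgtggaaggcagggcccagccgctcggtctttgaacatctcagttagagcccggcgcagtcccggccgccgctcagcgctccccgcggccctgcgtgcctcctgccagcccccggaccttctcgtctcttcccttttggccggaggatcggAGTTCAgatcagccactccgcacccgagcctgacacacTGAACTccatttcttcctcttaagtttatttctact
Retinoic acid receptors bind pairs of these hexamers. Direct repeats of them with a spacer of 1, 2 or 5 bases were in none of the 10 promoters, and in 0.194%, 0.137% and 0.326% of the 33465 promoters of the table. AGTTCA was found at 2 places in the Tgfb2 promoter, 74 and 36 bases before the start, at 1 place in that of Tgfbr2, 174 bases before it, and in 12.2% of all promoters. AGGTCA (14.1% of all promoters), GGGTCA (11.9%) and GGTTCA (9.77%) had no match in the 10, nor had TATAAA (12.9%), TGAGTCA (4.05%) and GTCTAGAC (0.173%). The Tgfbr3 and Ltbp3 promoters are rich in G and C (71.2% and 74%, higher than in 93.1% and 95.8% of promoters) and each held 1 GGGCGG, at 95 and 103 bases before the start. GGGCGG was in 6 of the 10 promoters and in 30.5% of all. The Ltbp1 promoter was less rich in G and C (56.8%) and held 3 CCAAT boxes, a string in 4 of the 10 and in 34% of all promoters, and 1 TGACGTCA, 108 bases before the start, found in 1.59% of all promoters. A match is a string of letters in this window and shows neither binding nor its absence.

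**Figure D1:**
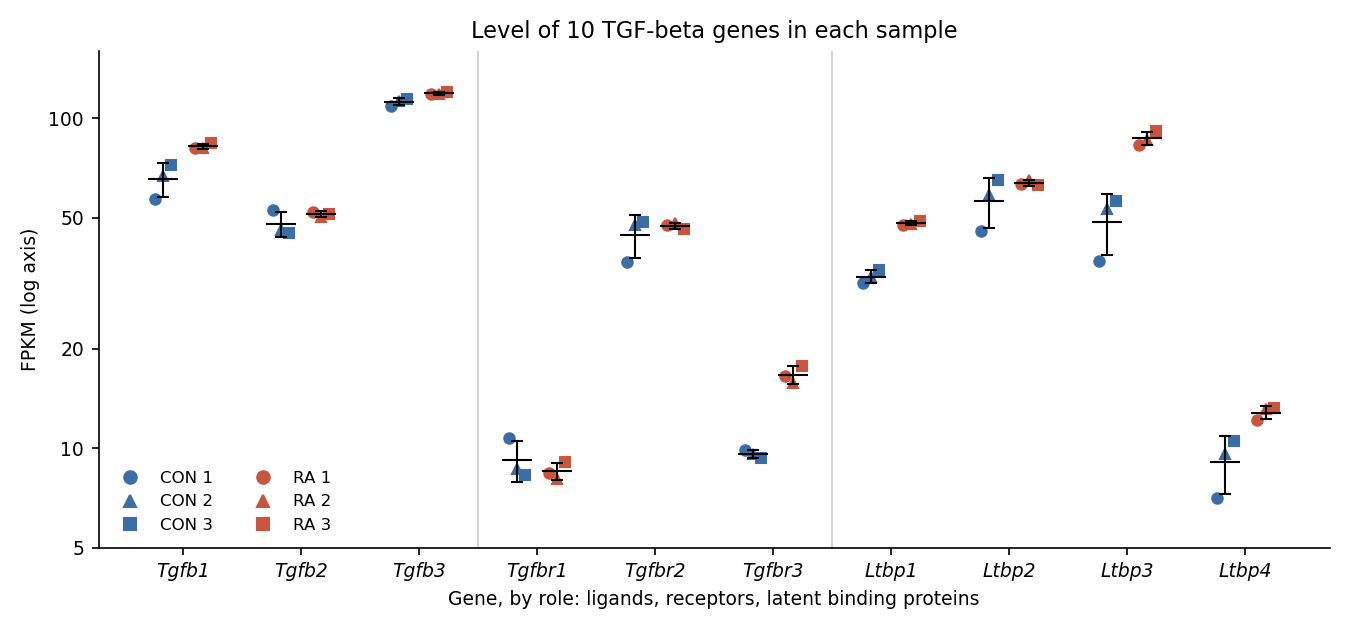
FPKM (log axis) of each of the 10 genes in the 3 CON (blue) and 3 RA (red) samples, with 1 symbol per sample and black bars for the group mean ± SD. The RA samples of Tgfbr3, Ltbp1 and Ltbp3 lie wholly above the CON samples, as do those of Tgfb1, Tgfb3 and Ltbp4 by smaller margins, and CON sample 1 is the lowest CON point for Ltbp3 (37.0 FPKM).

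Of the ligands, Tgfb3 had the highest level in both groups and Tgfb2 the lowest. Tgfb1 (ENSRNOG00000020652), the most widely expressed isoform in the body, measured 57.0, 66.9 and 72.05 FPKM in CON samples 1, 2 and 3, and 81.2, 81.3 and 83.95 FPKM in RA samples 1, 2 and 3. All RA samples were above all CON samples, with CON sample 1 the lowest. Its log2 fold change was 0.32 (SE 0.0907, 95% interval 0.11 to 0.53) and missed the threshold, with an adjusted p of 0.0666 in edgeR. It passed without CON sample 1 (0.22, adjusted p = 0.0154) and without CON sample 3 (0.40, adjusted p = 0.0205), and over all alternatives its adjusted p ran from 0.0154 to 0.225.

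Tgfb2 (ENSRNOG00000002418), the isoform that depends most on betaglycan for receptor binding, measured 52.5, 46.0 and 45.0 FPKM in CON and 52.2, 50.3 and 51.3 FPKM in RA. The groups overlapped through CON sample 1, the highest of the 6. The log2 fold change was 0.09 (SE 0.0689, interval -0.07 to 0.24, adjusted p = 0.488 in edgeR). Without CON sample 1 it was 0.16 with an adjusted p of 0.0384, and over all alternatives the adjusted p ran from 0.0384 to 0.744. Tgfb3 (ENSRNOG00000009867), the isoform commonly added to culture medium to drive chondrogenesis, measured 109, 113 and 115 FPKM in CON and 119, 118 and 120 FPKM in RA. The groups did not overlap, but the gap was small. Its log2 fold change was 0.07 (SE 0.0537, interval -0.05 to 0.20, adjusted p = 0.458).

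Of the 3 ligands, 1 (Tgfb1) was higher at an unadjusted p below 0.05 in edgeR, as 12.3% of all genes were, and passed as higher by DESeq2, as 6.85% of all genes did. The summed level of the 3 ligands was 225 ± 6.55 FPKM in CON and 252 ± 2.81 FPKM in RA, and the sums of the groups did not overlap (exact permutation test, two-sided p = 0.1, the smallest that 3 samples against 3 allow).

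Among the receptors the co-receptor moved and the kinases did not pass. Tgfbr3 (ENSRNOG00000002093) measured 9.91, 9.61 and 9.35 FPKM in CON and 16.55, 15.75 and 17.8 FPKM in RA. Every RA sample was well above every CON sample, and CON sample 1 lay with the other CON samples. It rose 1.74-fold, with a log2 fold change of 0.78 (SE 0.0668, interval 0.63 to 0.94, adjusted p = 0.000237 in edgeR), and leaving out any 1 of the 6 samples kept it a DEG, at 0.73 to 0.82.

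Tgfbr1 (ENSRNOG00000007036), the type I kinase also called ALK5, measured 10.75, 8.68 and 8.29 FPKM in CON and 8.45, 8.10 and 9.07 FPKM in RA. CON sample 1 was the highest and the others overlapped, for a log2 fold change of -0.12 (SE 0.102, interval -0.36 to 0.11, adjusted p = 0.498). Without CON sample 1 it was -0.0063, with an adjusted p of 0.964. Tgfbr2 (ENSRNOG00000013265), the type II kinase that captures the ligand, measured 36.6, 47.6 and 48.3 FPKM in CON and 47.3, 48.1 and 46.1 FPKM in RA. Here CON sample 1 was the lowest, and the other 5 samples lay close together. The log2 fold change was 0.08 (SE 0.106, interval -0.16 to 0.32, adjusted p = 0.685), and it turned to -0.04 without CON sample 1.

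Neither kinase receptor had an unadjusted p below 0.05, and neither passed by DESeq2. The ratio of Tgfbr3 to Tgfbr2 FPKM was 0.222 ± 0.0425 in CON (0.198 over CON samples 2 and 3) and 0.354 ± 0.0293 in RA, and the groups did not overlap (exact permutation test, two-sided p = 0.1, the smallest the design allows). This ratio was chosen after the values of its genes were seen.

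The 4 latent TGF-beta binding proteins had a median log2 fold change of 0.505, beside 0.09 for the ligands and 0.08 for the receptors. These medians were 0.41, 0.155 and -0.0063 without CON sample 1. Ltbp1 (ENSRNOG00000033090), which binds the latent form of all 3 ligands, measured 31.7, 33.1 and 34.7 FPKM in CON and 47.4, 48.0 and 48.8 FPKM in RA. The groups were far apart, with little spread within either. It rose 1.45-fold, with a log2 fold change of 0.52 (SE 0.0606, interval 0.38 to 0.66, adjusted p = 0.00118 in edgeR), under the fold set for a DEG, and passed whichever of the 6 samples was left out.

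Ltbp3 (ENSRNOG00000020813), which also binds all 3 ligands and is needed for skeletal growth and teeth, measured 37.0, 53.0 and 56.0 FPKM in CON and 83.2, 85.9 and 91.3 FPKM in RA. CON sample 1 was well below the other CON samples, and all RA samples were above all CON samples. The rise was 1.78-fold, with a log2 fold change of 0.82 (SE 0.143, interval 0.49 to 1.15, adjusted p = 0.00855 in edgeR). It was 0.65 (SE 0.0562) without CON sample 1, and Ltbp3 remained a DEG whichever of the 6 samples was left out. In RefSeq, Tgfbr3 and Ltbp1 overlap 2 and 1 annotated long non-coding genes, and Tgfb2 overlaps 1 small nucleolar RNA gene. Their reads were not analysed here, and no source states whether strand was used in counting.

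Ltbp4 (ENSRNOG00000020871), which binds latent Tgfb1 poorly and is best known for its part in elastic fibres, measured 7.06, 9.60 and 10.55 FPKM in CON and 12.2, 13.1 and 13.2 FPKM in RA. The groups did not overlap, and CON sample 1 was the lowest. Its log2 fold change of 0.49 (SE 0.138, adjusted p = 0.0648) missed the threshold. It passed by DESeq2 across all 6 samples (0.49, adjusted p = 0.0074). In edgeR it passed without CON sample 1 (0.33, adjusted p = 0.0049) and was a DEG without CON sample 3 (0.62, adjusted p = 0.0211). Over all alternatives its adjusted p ran from 0.0049 to 0.207. Ltbp2 (ENSRNOG00000012094), the one member that does not bind latent TGF-beta and a component of microfibrils, measured 45.7, 58.4 and 64.9 FPKM in CON and 63.1, 65.2 and 62.8 FPKM in RA. RA samples 1 and 3 lay between CON samples 2 and 3, RA sample 2 was just above CON sample 3, and CON sample 1 was the lowest of the 6. The log2 fold change was 0.16 (SE 0.118, interval -0.11 to 0.43, adjusted p = 0.445), and 0.03 without CON sample 1. Of the 4 Ltbp genes, 3 were higher at an unadjusted p below 0.05 in edgeR, as 12.3% of all genes were. By DESeq2 3 passed as higher, as 6.85% of all genes did.

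**Figure D2:**
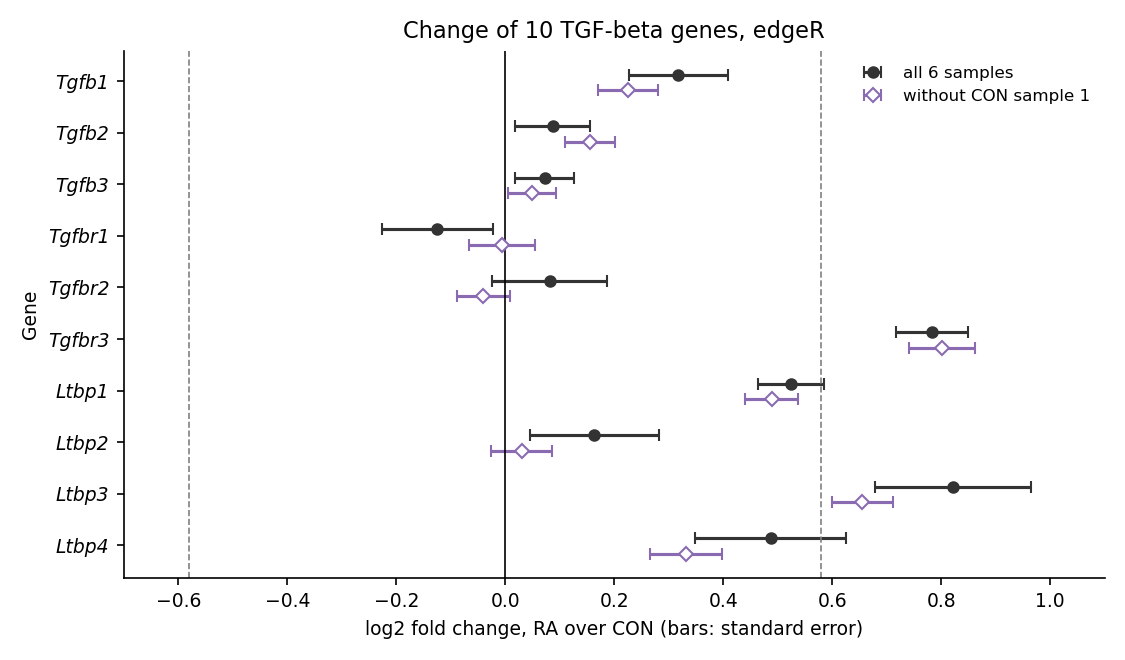
Log2 fold change (RA minus CON) of each of the 10 genes with bars of 1 standard error, from all 6 samples (black) and without CON sample 1 (purple), and dashed lines at 0.58 in either direction. Tgfbr3 (0.78) and Ltbp3 (0.82) lie beyond the dashed line and Ltbp1 (0.52) just inside it, while Ltbp2 moves from 0.16 to 0.03 and Tgfbr2 from 0.08 to -0.04.

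Of the 10 genes, 9 had a log2 fold change above 0 and 6 had RA samples wholly above CON samples (18.9% of all genes tested did), with none wholly below (13.3% of all genes). The median log2 fold change of the 10 was 0.24, and -0.0057 over all genes tested. Without CON sample 1 the median was 0.19, and 6 of the 10 passed (Tgfb1, Tgfb2, Tgfbr3, Ltbp1, Ltbp3 and Ltbp4), with 16.5% of all genes passing in that fit and 8.65% passing as higher. Tgfbr3 and Ltbp3 were again the DEGs, beside 5.54% of all genes and 2.84% as higher.

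In CON the levels ran from Tgfb3 at 112 ± 2.82 FPKM down through Tgfb1, Ltbp2, Ltbp3, Tgfb2, Tgfbr2, Ltbp1, Tgfbr3 and Tgfbr1 to Ltbp4 at 9.07 ± 1.81 FPKM. Tgfb3 stood above all others, and Tgfb1 through Tgfbr2 overlapped neighbour by neighbour, as did Tgfbr3, Tgfbr1 and Ltbp4. In RA the order was Tgfb3, Ltbp3, Tgfb1, Ltbp2, Tgfb2, Ltbp1, Tgfbr2, Tgfbr3, Ltbp4 and Tgfbr1, and only Ltbp3 with Tgfb1 and Ltbp1 with Tgfbr2 overlapped as neighbours. Ltbp3 thus went from the fourth to the second level. Tgfbr1 was the lowest in RA, and in CON samples 2 and 3 (8.68 and 8.29 FPKM) it was already the lowest.

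Within the Ltbp group the share of Ltbp3 in the summed FPKM was 32.9 ± 2.1% in CON and 41 ± 1.04% in RA. That of Ltbp2 was 38.2 ± 0.767% in CON and 30.1 ± 0.948% in RA, while Ltbp1 had 22.8% (21.2% over CON samples 2 and 3) and 22.7% and Ltbp4 had 6.13% and 6.07%. Ltbp2 led the group in CON and Ltbp3 led it in RA. Within the receptors the share of Tgfbr3 was 15.4 ± 1.71% in CON and 23.1 ± 1.25% in RA, that of Tgfbr2 was 69.8 ± 5.13% and 65.2 ± 1.84% (p = 0.3, exact permutation test), and that of Tgfbr1 was 14.8 ± 3.42% and 11.8 ± 0.589%. CON sample 1 lay apart in both kinases, at 63.9% for Tgfbr2 (72.2% and 73.3% in the other CON samples) and 18.8% for Tgfbr1 (13.2% and 12.6%). Leaving it out took the Tgfbr2 difference from -4.65 to -7.6 percentage points, with no overlap of the groups, and the Tgfbr1 difference from -3.05 to -1.08. Within the ligands Tgfb1 had 28.9 ± 2.6% and 32.6 ± 0.333%, a difference of 3.62 percentage points that was 2.18 without CON sample 1, and Tgfb3 had 49.8 ± 0.264% and 47.1 ± 0.146%. For Ltbp3, Ltbp2, Tgfbr3, Tgfbr1, Tgfb1 and Tgfb3 the groups of shares did not overlap, and the exact two-sided permutation test gave p = 0.1, the smallest that 3 against 3 allows. Shares sum to 100% within a group, so a rise in one lowers the others.

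**Figure D3:**
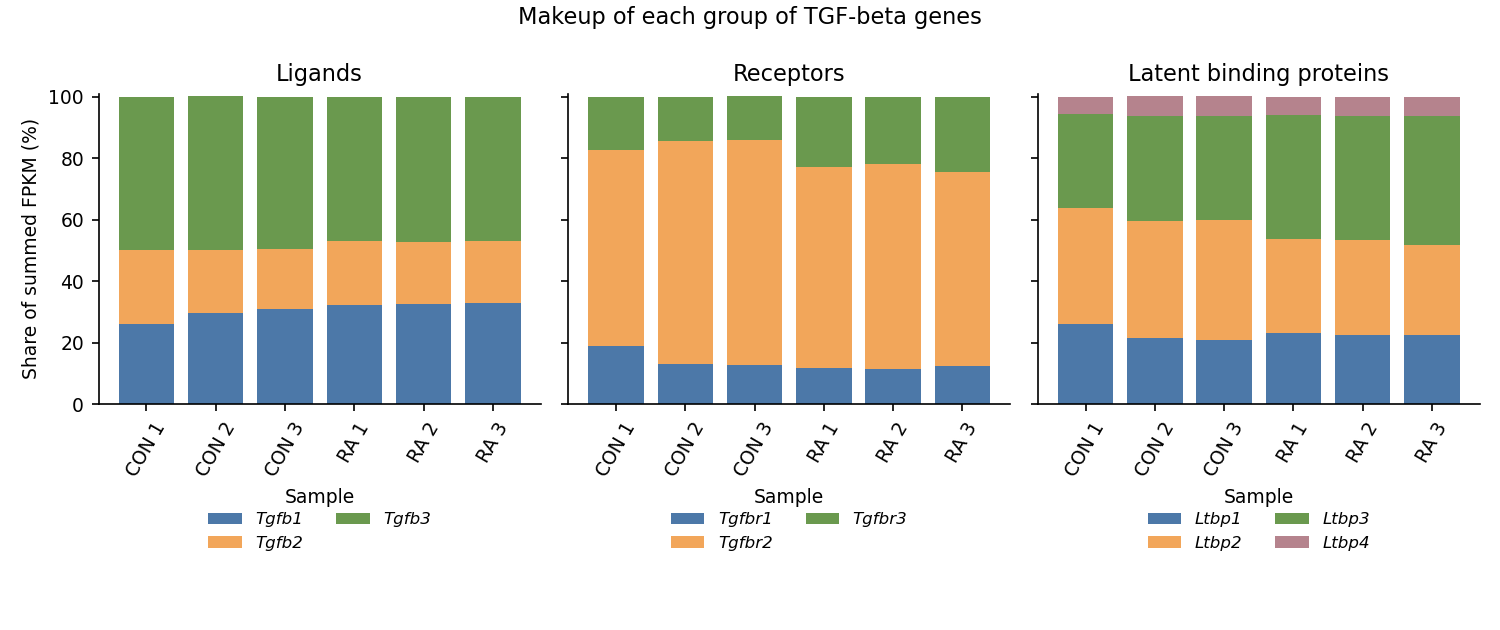
Share (%) of each gene in the summed FPKM of the ligand, receptor and Ltbp groups, in 3 panels with 1 stacked bar per sample for the 3 CON and 3 RA samples. The Ltbp3 band widens from 32.9% on average in CON to 41% in RA and the Tgfbr3 band from 15.4% to 23.1%.

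The summed Ltbp level was 147 ± 23.1 FPKM in CON (160 over CON samples 2 and 3) and 211 ± 5.15 FPKM in RA, a larger gap than that of the ligands. The ratio of summed Ltbp to summed ligand FPKM was 0.652 ± 0.0852 in CON (0.7 over CON samples 2 and 3) and 0.838 ± 0.0179 in RA. The lowest RA ratio, 0.817, was above the highest CON ratio, 0.717 (exact permutation test, two-sided p = 0.1, the smallest the design allows). This ratio was also chosen after the values of its genes were seen, and it is one of RNA, not of protein.

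The other genes of the pathway were read from 7 lists with 90 different genes, of which 88 were found and 83 tested. Of these, 19 passed as higher and 11 as lower, and 13 were DEGs (6 higher and 7 lower). Over all genes tested 9.82% passed and 4.96% were DEGs. The median log2 fold change of the 83 genes was 0.0542, beside -0.0057 over all genes. The median was 0.0182 without CON sample 1, with 23 genes passing as higher and 16 as lower. The lists hold genes of known importance in this tissue and were chosen with earlier results of these data known.

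Of 16 tested partners and activators of the latent complex, 6 passed as higher and 1 as lower, with a median of 0.12. The counts were 7 and 2 and the median 0.207 without CON sample 1. Tgm2, the transglutaminase that cross-links latent complexes to matrix, had low levels of 0.921 ± 0.169 FPKM in CON and 1.74 ± 0.136 FPKM in RA and rose by 0.91 (adjusted p = 0.0106 in edgeR). That call was lost without RA sample 3 (0.84, adjusted p = 0.0574). Plau, the urokinase that activates plasmin, rose by 0.66 (SE 0.0993, adjusted p = 0.00428) and was a DEG whichever sample was left out. Thbs1 encodes thrombospondin 1, an activator of latent TGF-beta. It fell from 1074 ± 50.2 FPKM to 816 ± 33.8 FPKM, with a log2 fold change of -0.41 (SE 0.0571, adjusted p = 0.00299).

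The integrin subunit Itgav, shared by the integrins that activate latent TGF-beta, passed at 0.29 (adjusted p = 0.00975), and Lrrc32, the membrane tether of latent ligand also called GARP, at 0.42 (adjusted p = 0.0395). Neither call held when CON sample 2 or any 1 RA sample was left out, where the adjusted p was 0.0547 to 0.0690 for Itgav and 0.0703 to 0.160 for Lrrc32. Itgb8, the partner subunit that binds latent TGF-beta with Itgav, was at 0.630 ± 0.0870 FPKM in CON and 0.681 ± 0.184 FPKM in RA (log2 fold change 0.10, adjusted p = 0.84), a difference that turned to -0.11 without RA sample 2. The fibrillin Fbn1, the microfibril backbone, had a log2 fold change of -0.08 (adjusted p = 0.557), and Fbn2 had -0.37 (adjusted p = 0.0645), which passed without CON sample 1 at -0.48 (adjusted p = 0.000128).

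The microfibril and elastic fibre list had 15 tested genes and a median of -0.0060, with 2 passing as higher and 1 as lower. When CON sample 1 was left out, 2 passed as higher and 4 as lower, with a median of -0.0816. Mfap5, a microfibril-associated glycoprotein, fell from 5.63 ± 0.616 FPKM to 2.85 ± 0.412 FPKM (log2 fold change -0.997, adjusted p = 0.00651). Efemp1, the fibulin 3 gene, rose from 2.98 ± 0.262 FPKM to 4.79 ± 0.707 FPKM (0.67, adjusted p = 0.0259), which did not pass once CON sample 2 or RA samples 2 or 3 were left out singly (adjusted p = 0.106 to 0.12). Among the soluble proteins that bind TGF-beta or its relatives, 7 were tested and 5 passed, 3 higher and 2 lower. Fmod, which encodes the proteoglycan fibromodulin, fell from 392 ± 3.06 FPKM to 197 ± 7.68 FPKM (log2 fold change -1.01, SE 0.0533, adjusted p = 2.54e-05). Htra1, a secreted serine protease of cartilage, rose from 298 ± 14.1 FPKM to 481 ± 10.9 FPKM (0.68, adjusted p = 0.000256), and the activin antagonist Fst rose by 0.78 (adjusted p = 0.00771).

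Of 7 accessory receptors and decoys tested, 1 passed as higher and 1 as lower, and none was a DEG in edgeR or by DESeq2, with 2 higher and 1 lower at an unadjusted p below 0.05. Leaving out CON sample 1 gave 2 higher and 1 lower. Endoglin (Eng), a co-receptor related to betaglycan, passed at 0.52 (adjusted p = 0.0277, and 0.40 without CON sample 1), from 7.99 ± 1.29 FPKM to 11.6 ± 0.311 FPKM. It did not pass without CON sample 2 or any 1 RA sample (adjusted p = 0.0835 to 0.118). Without CON sample 3 it was a DEG (0.64, adjusted p = 0.00908 in edgeR). In the activin branch 1 of 7 genes passed. Inhbe, an activin subunit gene, fell from 5.35 ± 0.366 FPKM to 2.11 ± 0.404 FPKM (log2 fold change -1.35, adjusted p = 0.00109).

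Of 16 Smad pathway genes tested, 2 passed, both higher. The transducers Smad2, Smad3 and Smad4 had log2 fold changes of -0.02, 0.14 and -0.16 with adjusted p of 0.914, 0.347 and 0.236. Smad7, the inhibitory Smad that is itself a target of the pathway, rose from 4.42 ± 0.706 FPKM to 7.07 ± 0.464 FPKM (0.66, SE 0.122, adjusted p = 0.0109 in edgeR). It did not pass without RA sample 1 (0.62, adjusted p = 0.0580), and without CON sample 1 it passed at 0.54, under the fold set for a DEG. Smurf2, a ubiquitin ligase that acts with Smad7 on the receptors and was named after its values were seen, was the other, at 0.46 (adjusted p = 0.00618). Across all 6 samples none of the 16 passed as lower in edgeR or by DESeq2, and none was lower at an unadjusted p below 0.05. Without CON sample 1, 3 passed as higher and 1 as lower, the corepressor gene Ski (-0.28, adjusted p = 0.00374 in edgeR, and -0.077 with an adjusted p of 0.826 across all samples), named after its values were seen. Skil, which encodes a corepressor of the Smads, had 0.10 (adjusted p = 0.591).

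The TGF-beta target genes went both ways: of 20 tested, 6 passed as higher and 5 as lower, and 1 of the DEGs was higher and 4 were lower, for a median of 0.10. With CON sample 1 left out, 7 passed as higher and 6 as lower, and 4 were DEGs, all 4 lower. Ccn2, the connective tissue growth factor gene, rose from 694 ± 22.7 FPKM to 1021 ± 16.2 FPKM (0.55, SE 0.0473, adjusted p = 0.000253), under the fold set for a DEG, and Pmepa1, a membrane inhibitor of the pathway, rose by 0.52 (adjusted p = 0.0016). Postn, which encodes periostin, fell from 12.2 ± 1.71 FPKM to 5.04 ± 0.355 FPKM (log2 fold change -1.28, adjusted p = 0.000231), and Acta2, the smooth muscle actin gene, from 107 ± 6.67 FPKM to 60.8 ± 4.10 FPKM (-0.83, adjusted p = 0.000403). Tgfbi, the gene for a secreted adhesion protein, fell from 195 ± 7.56 FPKM to 124 ± 3.74 FPKM (-0.66, adjusted p = 0.000307).

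Nox4, the NADPH oxidase, fell at a level near 1 FPKM (-0.75, adjusted p = 0.0263), and that call held only without CON sample 1 among the 6 samples left out in turn (adjusted p up to 0.0982 without the others).

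**Figure D4:**
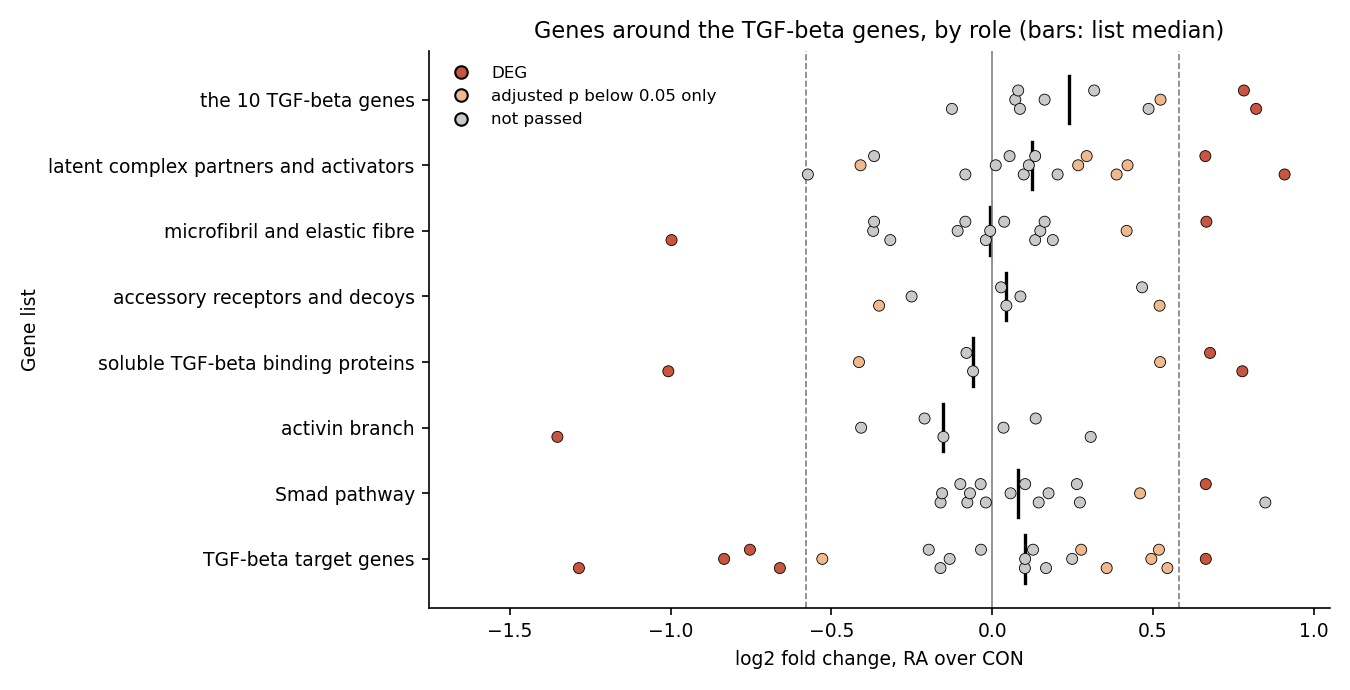
Log2 fold change (RA minus CON) of each tested gene in the 7 pathway lists, below a row of the 10 TGF-beta genes, with DEGs in red, genes with only an adjusted p below 0.05 in orange, other genes in grey, and a black bar at each median. The medians of the 7 lists lie between -0.15 and 0.12, and single genes such as Inhbe (-1.35), Postn (-1.28) and Tgm2 (0.91) lie far from them.

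Markers of other cells were read beside these changes. Over all tested markers of fibroblast and perichondrium (summed FPKM of 3833.2 to 5032.6 in CON and 4926.3 to 5189.6 in RA) 1 of 7 passed. The macrophage list of 7 genes summed to 13.2 to 14.8 FPKM in CON and 16.1 to 17.5 FPKM in RA. None of its 3 tested genes passed in edgeR or DESeq2 (1 was higher at an unadjusted p below 0.05). Most of the macrophage sum was Cd14 (12.9 FPKM in CON and 15.3 FPKM in RA on average). Ptprc, Adgre1, C1qa and C1qb each stayed at or under 0.1255 FPKM. The muscle list of 5 summed to 4.72 to 6.00 FPKM and 6.96 to 7.87 FPKM. Des made up most of it (5.1 and 6.7 FPKM on average), and 1 of 2 tested genes passed. That gene was Myod1, higher in RA at low levels (0.0932 ± 0.0245 and 0.366 ± 0.0768 FPKM, adjusted p = 0.0142 in edgeR). It passed in 3 of the 6 fits with a sample left out. These marker genes were named after their values were seen. The endothelium list of 4 genes stayed at or under 0.178 FPKM, with Emcn at 0 in every sample, and the osteoblast list of 4 genes at or under 1.70 FPKM. No gene of the other lists was at 0 in every sample. The part of these markers, and of the lower chondrocyte markers, in the results above was not tested.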

How the data were processed

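Poly(A) RNA of 3 CON and 3 RA samples was sequenced by the authors, who deposited for each sample 1 read count and 1 FPKM value per gene (18923 genes, Ensembl identifiers). Per the submitters' processing notes, HISAT2, HTSeq 0.13.5 and Rnor_6.0 were used. The annotation release, the strand setting and the handling of shared reads are not given in the sources used here, so counts of overlapping genes are uncertain. The deposited FPKM values were the counts divided by gene length and by the sample's own total, with no further scaling between samples, and were used for levels.

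Samples were grouped by their titles. Counts were normalized by TMM and tested in edgeR 4.0.16 (R 4.3.3; glmQLFit and glmQLFTest, all 6 samples, no covariates) after filterByExpr with a minimum count of 10, which kept 13438 genes. Standard errors were derived from the F statistic. Shares, sums and ratios were tested by exact permutation (scipy 1.17.1). The test was checked on simulated counts. Alternatives were DESeq2 1.42.0, limma 3.58.1 on log2(FPKM + 0.1) and log2(FPKM + 1), other normalizations, filters and call rules, a replicate block, and leaving out each sample in turn. A floor of 3 counts equals 0.0789 to 0.102 CPM and covers counting error only.

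The members, the gene lists and the rule for named genes were chosen with earlier results of these data known. Named were the 10 genes, 15 set genes of the lists (Fbn1, Fbn2, Itgav, Itgb8, Thbs1, Lrrc32, Eng, Smad2, Smad3, Smad4, Smad7, Skil, Ccn2, Tgfbi and Pmepa1) and, of each list, up to 6 DEGs with the largest change. Promoters came from RefSeq on GRCr8, in which all 10 genes were matched. That build differs from the files', so no coordinates were joined. Mfap4 and Mstn of the lists and Pecam1 and Myog of the markers were not analysed here, and some values are not reported here.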

Additional observations from a re-analysis of the deposited data

How the results depend on the processing

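Tgfbr3 and Ltbp3 remained DEGs, and Ltbp1 stayed past an adjusted p of 0.05, under every alternative run. The number of the 10 genes that passed was 3, and 5 by DESeq2, 5 with the replicate block and 3 to 6 when 1 sample was left out (6 without CON sample 1, 5 without CON sample 3), and the number of DEGs among them was 2 to 3. The genes called over the whole table numbered 667, and 434 by limma on log2(FPKM + 1), 1319 by adjusted p alone, 1017 by unadjusted p with the fold change and 480 to 755 when 1 sample was left out. The pathway lists held 13 DEGs, 30 by adjusted p alone and 10 to 15 when 1 sample was left out. The Tgfbr3 share of the receptors differed by 7.7 percentage points, 11 when computed from CPM without length and 7.04 to 8.68 when 1 sample was left out, where Ltbp3 gave 6.99 to 8.96 and Tgfb1 2.18 (without CON sample 1) to 4.7. Among the 10 genes and the list genes named by rule, the sign turned for 3 that passed neither across all samples nor with a sample left out: Tgfbr2 without CON sample 1 (-0.040, in a range of -0.040 to 0.16 over samples left out), Itgb8 without RA sample 2 (-0.11, range -0.11 to 0.29) and Smad2 without CON sample 1 (0.072) or RA sample 1 (0.0016, range -0.083 to 0.072). Of the genes named after their values were seen, Ski ranged from -0.28 (without CON sample 1) to 0.075 and Map3k7 from -0.71 to 2.64. The cause was not tested. Replicate numbers did not pair the samples: the deviations of same-numbered samples correlated at 0.0928, -0.0123 and 0.0118, and not every sample correlated best with its own number. With the replicate block 684 genes were called, and Tgfb1 (0.32, adjusted p = 0.0217), Ltbp4 (0.51, adjusted p = 0.00942) and Fbn2 (-0.36, adjusted p = 0.0158) passed. Without CON sample 1 the standard error of the Tgfb1 difference was 0.0546, beside 0.0907 with it.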

Other observations

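Map3k7, which encodes the kinase TAK1 of the non-Smad branch, was unsteady within both groups. It measured 0.132, 1.14 and 0.132 FPKM in CON samples 1, 2 and 3, and 1.95, 0.358 and 0.208 FPKM in RA samples 1, 2 and 3. CON sample 2 and RA sample 1 were far above the rest, from 17 to 243 reads a sample, and the log2 fold change of 0.85 had a standard error of 0.992 (adjusted p = 0.645 in edgeR). The gene was named after its values were seen.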
